A study of Homo sapiens with 2 samples.

Results

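Genes of the kinetochore, the spindle checkpoint and the exit from mitosis were examined in RNA bound to Argonaute2 (Ago2), the protein through which microRNAs hold their mRNA partners. The cells were A549, an established human lung adenocarcinoma line. The control culture carried an empty vector and the treated culture overexpressed miR-130b, and in both the RNA was taken down with an anti-Ago2 antibody before hybridisation to a whole-transcript Affymetrix array. Each group had 1 array, and the sources used here give no construct, dose or time after transfection. The 58 members were chosen by name from general knowledge of mitosis, after an earlier look at these same arrays had shown mitotic genes higher with miR-130b. Their differences between the arrays are therefore a description of these 2 samples, with no test, standard error or p-value. Of the 58 members, 57 had a probe set with a single gene symbol, among 18417 genes named in all. Older names stood for 4 of them in the rule, CASC5 (KNL1), MLF1IP (CENPU), SGOL1 (SGO1) and SGOL2 (SGO2).

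The kinetochore is the protein plate that joins each centromere to spindle microtubules. It is built in layers on nucleosomes that hold the histone variant CENP-A: an inner network that stays on the centromere, and an outer network that catches microtubules in mitosis. Checkpoint proteins on unattached kinetochores hold back the anaphase-promoting complex (APC/C), and once that brake is released, the APC/C destroys securin and cyclin B so that chromatids part and the cell leaves mitosis. The mRNAs of many of these proteins accumulate in G2 and M phase, in part through promoter elements called CHR and CCAAT boxes. In cultures measured in bulk, a larger share of cells in G2 or M and more such RNA per cell cannot be told apart.

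The overexpressed microRNA is shown here because it is the sole difference the labels give between the samples. Its mature strands are printed in lower case with the seed, bases 2 to 8, in capitals (RefSeq, GRCh38.p14, chromosome 22, plus strand).
hsa-miR-130b-3p: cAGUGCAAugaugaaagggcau
hsa-miR-130b-5p: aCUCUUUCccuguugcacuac
The probe set of the MIR130B gene read 6.66 on the empty-vector array and 12.64 on the miR-130b array, on the log2 scale of the deposited values, and AGO2 read 11.41 and 11.66. Pairs of values below are given in that order. Both arrays had nearly the same distribution (medians of 7.77), so every difference below is relative to the other genes. RNA from before the precipitation was not analysed here, so a change in an mRNA's amount and a change in its share on Ago2 cannot be told apart. Of 10 epithelial markers of A549 cells, 9 passed the filter on low values described below, with KRT8 at 13.38 and 13.48, while EPCAM was below it. Of the 10, 7 were higher and 3 lower with miR-130b, and CDH1 (E-cadherin) was more than 2-fold lower, at 12.61 and 11.49 (-1.12). The filter was passed by 2 of 5 measured leukocyte markers (CD68 and CD14), 1 of 5 endothelial and 1 of 7 fibroblast markers. CD68 was also more than 2-fold lower, at 11.14 and 9.96 (-1.18). PTPRC, carried by leukocytes, read 4.38 and 4.58, and PECAM1, of endothelium, 4.85 and 4.97. All 7 fibroblast markers were higher on the miR-130b array (median difference 0.33), at levels from 4.46 to 8.74 on the empty-vector array and from 4.55 to 9.05 on the other. The 5 measured endothelial markers were also all higher (median difference 0.14), as were 4 of the 5 leukocyte markers (median 0.043). Of all named genes, 58.6% were higher. The part of other cells in the results was not tested.

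With miR-130b, 56 of the 57 measured members were higher and 1, MIS12, was lower. The median difference, miR-130b minus empty vector, was 0.55 on the log2 scale, or 1.46-fold, against 0.053 over all named genes. The quartiles of the members were 0.34 and 0.79. Over all named genes, 58.6% were higher with miR-130b. At least 2-fold higher were 8 members (SPC25, HJURP, CENPE, CENPF, KNL1, DLGAP5, MKI67 and CDK1), where 1.06% of all named genes were; none was at least 2-fold lower, where 1.37% of all named genes were. At least 1.5-fold higher were 26 members, against 3.65% of all named genes. CDK1 lay at the 2-fold line (1.001), and ASPM, ANLN and BUB1B lay just under it, each at 0.97.

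A filter on low values used the mean of both arrays and kept genes that reached its median over all genes with a name (8.64). It passed 47 members, of which 46 were higher, and it left 10 below: CENPH, CENPQ, CENPU, CENPW, NDC80, SPC24, SPC25, BIRC5, SGO2 and CDC25C. Among the 9209 genes that passed, 51.5% were higher and 1.32% at least 2-fold higher. The median difference of those 10 was 0.64, and 0.75 after the median signal of olfactory receptor genes, taken as background, had been subtracted from each array. As a yardstick within these arrays, different probe sets of 1 gene disagreed in their difference with a pooled SD of 0.16 (356 genes that passed the filter). The difference of 44 members was above 2 such SDs (0.33), as was that of 11.8% of all named genes. With the SD over all 671 named genes that have several probe sets (0.19), 39 members and 8.60% of named genes were above 2 SDs (0.39). This SD leaves out variation between cultures and precipitations, which these 2 arrays cannot give. Across the 57 members the difference was nearly unrelated to the mean level (Spearman's rho 0.033, given as a description since all members share the same 2 arrays).

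**Figure D1:**
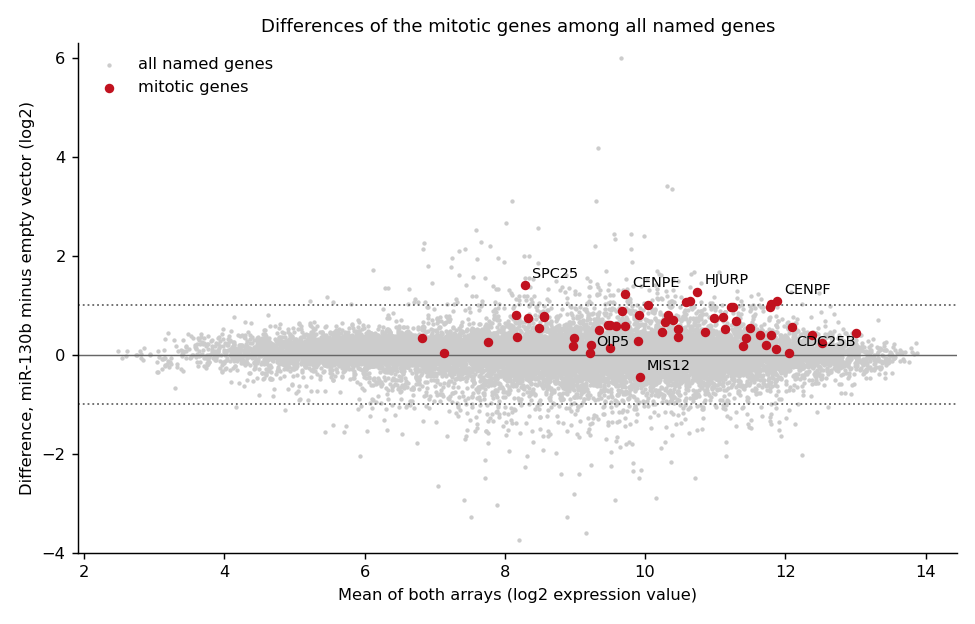
Each point is a gene, by its mean over both arrays (x axis, log2 expression value) and its difference, miR-130b minus empty vector (y axis, log2); red points are the 57 measured mitotic genes, grey points all 18417 named genes, and dotted lines mark 2-fold. Of the red points 56 lie above 0 at all levels, and MIS12 alone lies below.

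Promoter stretches of 4 members at least 2-fold higher and of MIS12 are shown for the elements that G2/M genes are known to share. They were picked after the values were seen. Each is the 140 bases before the start of transcription, read from 5′ to 3′ on the gene's strand (RefSeq, GRCh38.p14), for 1 listed start where a gene has several. Capitals mark CHR-type motifs (TTTGAA or TTTAAA, on either strand, so that TTCAAA counts too) and CCAAT boxes (CCAAT, or ATTGG on the other strand).
HJURP (chr2:233854536-233854675, minus strand): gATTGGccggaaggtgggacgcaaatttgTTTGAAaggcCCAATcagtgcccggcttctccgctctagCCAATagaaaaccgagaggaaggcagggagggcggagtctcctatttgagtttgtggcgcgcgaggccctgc
CENPF (chr1:214603055-214603194, plus strand): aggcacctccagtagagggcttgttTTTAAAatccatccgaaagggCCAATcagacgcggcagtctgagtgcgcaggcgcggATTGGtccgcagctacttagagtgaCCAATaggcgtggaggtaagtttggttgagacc
CDK1 (chr10:60778338-60778477, plus strand): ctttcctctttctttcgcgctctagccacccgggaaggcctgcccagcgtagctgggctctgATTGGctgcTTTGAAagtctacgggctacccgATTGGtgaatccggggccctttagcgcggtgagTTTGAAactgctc
MKI67 (chr10:128126424-128126563, minus strand): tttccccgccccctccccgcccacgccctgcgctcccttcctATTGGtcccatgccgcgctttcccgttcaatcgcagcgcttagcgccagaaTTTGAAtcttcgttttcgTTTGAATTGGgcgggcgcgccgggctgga
MIS12 (chr17:5486234-5486373, plus strand): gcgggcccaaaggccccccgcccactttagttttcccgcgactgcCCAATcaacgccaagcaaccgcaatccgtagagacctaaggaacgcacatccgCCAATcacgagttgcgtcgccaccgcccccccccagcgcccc
HJURP, CENPF, CDK1 and MKI67 each carry both kinds of motif in these stretches, and in MKI67 a CHR-type motif and a CCAAT box overlap. They were chosen for carrying both: in the same 140 bases SPC25, the highest member, holds no CHR-type motif, CENPE holds no CCAAT box, and neither does the stretch before the other listed start of CDK1. The MIS12 stretch holds CCAAT boxes and no CHR-type motif. These are matches of letters in a window and do not show that a factor binds there.

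Counted over the whole 300-base promoters of the table (250 bases before to 50 after a start), 34 of the 49 members with an entry held a CHR-type motif in at least 1 listed promoter (69.4%), against 24.4% of 14240 named genes with an entry and 24.0% of all 35116 promoters. A CCAAT box was found for 39 of the 49 (79.6%), against 42.2% of genes and 34.6% of promoters. Both were found for 26 (53.1%), against 12.3% of genes and 9.27% of promoters. TTCCCGC, a motif of the E2F type found at many G1/S genes, was found for 8 members (16.3%), against 10.9% of genes and 6.55% of promoters. The remaining 9 members (AURKA, BIRC5, BUB3, CENPH, CENPM, KNL1, TPX2, TTK and UBE2C) had no entry matched. The members were chosen by name for their roles in mitosis, so these shares describe the choice and not the arrays.

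Within the members, differences were split by motif as a description, with no test. The 33 measured members with a CHR-type motif had a median difference of 0.67 (0.03 to 1.40), and the 15 without it had a median of 0.45 (-0.45 to 0.80). All 7 members at least 2-fold higher that had a promoter entry held the motif in the 300 bases, SPC25 only outside the 140 bases before its start. Members with more listed starts have more chances to hold a motif; among members with 1 listed promoter the medians were 0.63 (26 with) and 0.49 (12 without). For the CCAAT box the order was the other way, with 0.55 in the 38 members that had it and 0.66 in the 10 that did not. Of these 3 motifs TTCCCGC gave the widest split, with a median of 0.17 in the 7 measured members that had it and 0.59 in the 41 that did not (0.26 in 4 and 0.59 in 34 with 1 listed promoter). Over all named genes with an entry, the medians were 0.066 with and 0.048 without a CHR-type motif. They were 0.054 with and 0.051 without a CCAAT box, and 0.074 with and 0.050 without TTCCCGC. For the CCAAT box and TTCCCGC this order was the opposite of that in the members.

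**Figure D2:**
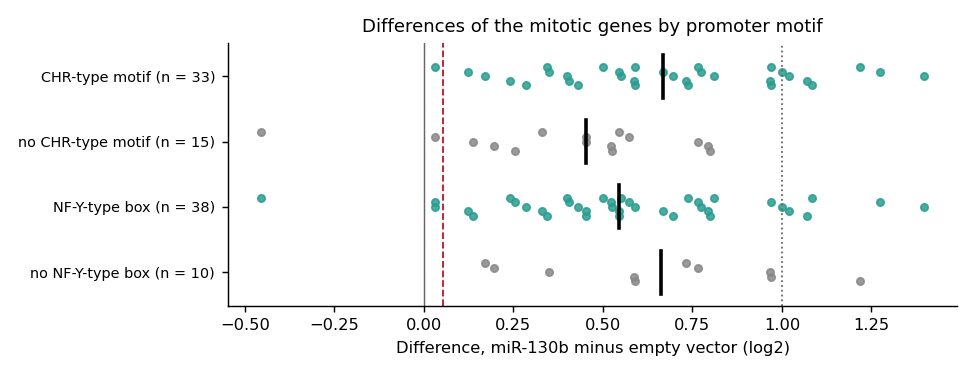
Differences (x axis, miR-130b minus empty vector, log2) of the 48 measured mitotic genes with a promoter entry, grouped by whether a promoter holds a CHR-type motif or a CCAAT box (labelled NF-Y-type box, after the factor that binds it); black bars are medians, the dashed red line is the median of all named genes (0.053) and the dotted line 2-fold. Genes with a CHR-type motif have a median of 0.67 and those without of 0.45, and the ranges overlap.

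Among the members, the layers of the kinetochore differed in the size of the difference. At its base, CENPA, the histone variant itself, had only a probe set shared with SLC35F6, at 9.71 and 9.92, so no value is given for it as a gene. HJURP, the chaperone that deposits CENP-A, stood at 10.10 and 11.38, the second highest difference of the list (1.27, 2.42-fold). OIP5 (MIS18-beta), which prepares the centromere for that deposition, stood at 9.19 and 9.22. The 2 deposition factors measured among the members were thus far apart, one among the highest members and the other at 0.03. MIS18A, a partner of OIP5 from the list of other kinetochore genes, lay between them at 9.68 and 10.14 (0.46).

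The inner network (CCAN) had the smallest median of the role groups, 0.34, although all 10 members were higher. Over the 6 CCAN members that passed the filter the median was 0.35. CENPU, which lies beside CENP-Q in that network and recruits PLK1, stood at 7.76 and 8.56 (0.79), below the filter. CENPI, of the CENP-H/I/K/M module, stood at 10.73 and 11.49 (0.77), and its partner CENPK stood at 10.62 and 11.08 (0.45). The other 2 subunits of that module were less apart, with CENPM at 9.12 and 9.32 (0.20) and CENPH at 7.12 and 7.16 (0.04). Subunits of 1 module thus ran from 0.04 to 0.77, but CENPH, at the low end, was below the filter. The subunits that passed it ran from 0.20 to 0.77. CENPN, which reads the CENP-A nucleosome directly, stood at 11.27 and 11.61 (0.35). Of the CENP-O/P/Q/U group, CENPO stood at 10.29 and 10.64 (0.35), CENPP at 9.43 and 9.57 (0.14) and CENPQ at 7.63 and 7.88 (0.26). CENPW, a histone-fold subunit, stood at 6.66 and 6.99 (0.33). CENPQ and CENPW were also below the filter. After background subtraction the differences of CENPW, CENPQ and CENPH were 0.57, 0.32 and 0.01. No CCAN member reached 2-fold, and CENPI and CENPU were the 2 at least 1.5-fold higher. A CHR-type motif was found for 2 of the 8 CCAN members with a promoter entry, CENPN and CENPO. That is near the share of all named genes with an entry, 24.4%. CENPU and CENPI, the highest CCAN members, held none.

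The outer, microtubule-binding network (KMN) had a median of 0.64 and held both ends of the list. SPC25, a subunit of the NDC80 complex, stood at 7.59 and 8.98, the highest difference of all members (1.40, 2.63-fold). Its mean was below the filter on low values, and its difference was 1.71 after background subtraction. The other 3 subunits of that complex were also higher: NDC80 at 7.97 and 8.70 (0.73), NUF2 at 9.42 and 10.01 (0.59) and SPC24 at 8.21 and 8.76 (0.55). All 4 subunits of the complex that grips microtubules thus lay above 0.5, but NDC80 and SPC24 were also below the filter and only NUF2 passed it. KNL1, the scaffold on which BUB proteins assemble, stood at 10.10 and 11.18 (1.08), and ZWINT, its partner, at 10.05 and 10.75 (0.70).

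The MIS12 complex, which links the inner layer to the outer one, had the smallest values of this layer. MIS12 read 10.15 and 9.69, which gives -0.45, the 7.26th percentile of all named genes. DSN1, of the same complex, stood at 11.62 and 11.82 (0.20). MIS12 was lower under each scaling tried, at between -0.51 and -0.42. In the list of other kinetochore genes, NSL1, a further subunit, stood at 10.38 and 10.59 (0.21). The 3 subunits measured therefore lay at or below 0.21, under every member of the NDC80 complex, of which NUF2 alone passed the filter.

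The fibrous corona and the Ska complex, which act at the outer face, had a median of 0.59. CENPE, a kinesin that carries chromosomes to the spindle equator, stood at 9.11 and 10.33 (1.22). CENPF, a large corona protein, stood at 11.33 and 12.42 (1.08). The Ska complex, which holds on to shortening microtubules, was less far apart in all 3 subunits. SKA3 stood at 9.20 and 9.79 (0.59), SKA2 at 10.02 and 10.47 (0.45) and SKA1 at 8.88 and 9.05 (0.17). SKA2 had 2 probe sets, with differences of 0.49 and 0.42. Among the members, 8 of 13 genes of the outer kinetochore (KMN, corona and Ska) were at least 1.5-fold higher. Of the CENP-A and CCAN members 3 of 12 were, and of all named genes 3.65%. The medians of these 2 sets were 0.59 and 0.34. The sets do not hold whole layers. Of 21 other centromere and kinetochore genes measured, described below, none was at least 1.5-fold higher and the median was 0.13. Those genes belong to both layers, among them NSL1 (0.21) and SPDL1 (0.42) of the outer and MIS18A (0.46) of the inner. The shares above thus depend on which genes were listed as members. The ranges of the 2 sets overlapped, and with 1 array per group the difference between them was not tested.

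**Figure D3:**
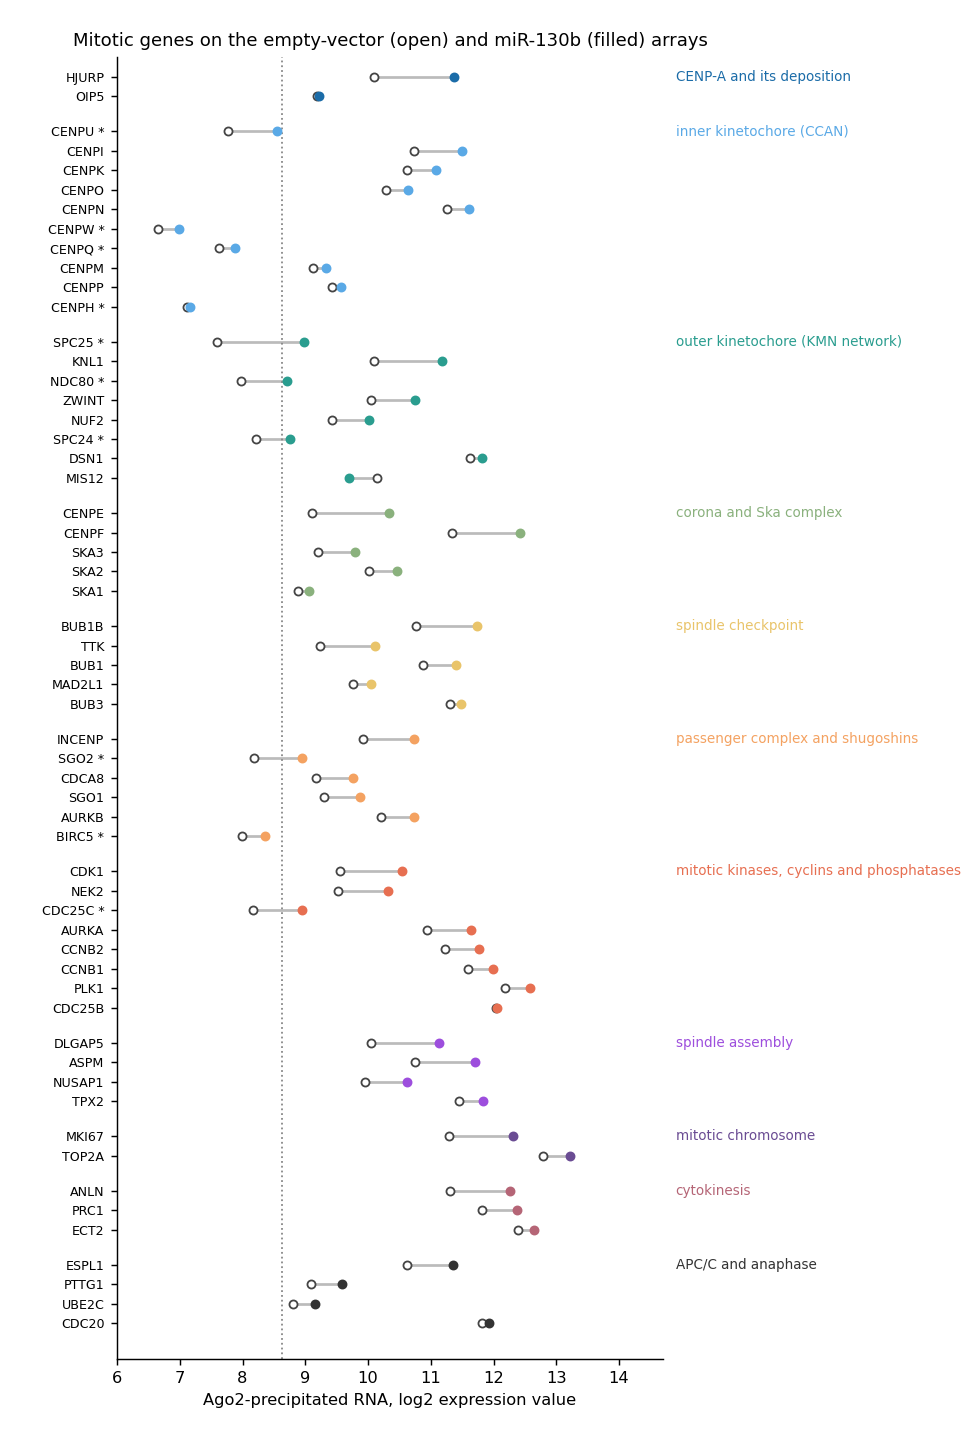
The log2 expression value (x axis) of each of the 57 measured genes on the empty-vector array (open circle) and the miR-130b array (filled circle), in rows grouped by role; the dotted vertical line is the filter at 8.64 and an asterisk marks genes whose mean is below it. All filled circles lie to the right of the open ones apart from that of MIS12, and HJURP, SPC25 and CENPE have the longest spans.

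The spindle checkpoint genes were higher in all 5 members, with a median of 0.52 and none at least 2-fold. BUB1B (BubR1), the part of the mitotic checkpoint complex that blocks the APC/C, stood at 10.77 and 11.74 (0.97). TTK (MPS1), the kinase that starts checkpoint signalling, stood at 9.23 and 10.11 (0.88). BUB1, the kinase that marks centromeric chromatin for the passenger complex, stood at 10.88 and 11.40 (0.52). MAD2L1, which captures CDC20, stood at 9.76 and 10.04 (0.28), and BUB3, the adaptor that brings BUB1 and BubR1 to KNL1, at 11.31 and 11.47 (0.17). BUB1B, TTK and BUB1, which carry kinase folds, thus lay above MAD2L1 and BUB3, and BUB3 lay about 1 probe-set SD above 0.

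The chromosomal passenger complex corrects wrong attachments, and shugoshins protect the cohesin that holds sister centromeres together. All 6 genes were higher, with a median of 0.58 and a range from 0.36 to 0.81, the narrowest of the groups with 4 or more members. INCENP, the scaffold of the complex, stood at 9.92 and 10.73 (0.81). AURKB, its kinase, stood at 10.21 and 10.74 (0.53), and CDCA8 (borealin) at 9.17 and 9.76 (0.59). BIRC5 (survivin) had 2 probe sets that disagreed in level and in difference: 1 stood at 9.45 and 9.995 (0.54) and the other at 6.54 and 6.71 (0.17), giving 0.36 on average. SGO2 stood at 8.18 and 8.94 (0.76) and SGO1 at 9.29 and 9.86 (0.57). The genes of both groups, which work at the same centromeric site, were thus all higher, from 0.36 to 0.81.

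Among the kinases, cyclins and phosphatases that drive mitosis, all 8 were higher with a median of 0.62. CDK1, the kinase of mitotic entry, stood at 9.55 with the control vector and 10.55 with miR-130b (1.001). Its cyclins were less far apart, with CCNB2 at 11.23 and 11.78 (0.55) and CCNB1 at 11.59 and 11.99 (0.40). The phosphatases that activate CDK1 split: CDC25C stood at 8.17 and 8.94 (0.77) and CDC25B at 12.03 and 12.06 (0.03). CDC25B was thus nearly the same on both arrays, at the 46.2nd percentile of all named genes. NEK2, a centrosome kinase, stood at 9.52 and 10.32 (0.80), AURKA, the spindle-pole kinase, at 10.95 and 11.64 (0.69), and PLK1, a kinase of entry, spindle and exit, at 12.18 and 12.59 (0.40). The order within the group was CDK1, NEK2, CDC25C, AURKA, CCNB2, CCNB1, PLK1 and CDC25B, and neighbours in it differed by less than the SD between probe sets except CDK1 from NEK2 and PLK1 from CDC25B.

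Genes of spindle assembly had the highest median of the role groups, 0.82 over 4 genes. DLGAP5 (HURP), which stabilises microtubules near chromosomes, stood at 10.05 and 11.12 (1.07). ASPM, a protein of spindle poles, stood at 10.74 and 11.71 (0.97). NUSAP1, which bundles microtubules, stood at 9.96 and 10.62 (0.67), and TPX2, the activator of AURKA, at 11.44 and 11.83 (0.39). TPX2 thus differed less than its partner kinase AURKA.

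Of the proteins of mitotic chromosomes, MKI67 (Ki-67), which coats them and marks cycling cells, stood at 11.29 and 12.30 (1.02). TOP2A, the topoisomerase that untangles sister chromatids, stood at 12.79 and 13.22 (0.43). In cytokinesis, ANLN (anillin), a scaffold of the contractile ring, stood at 11.30 and 12.27 (0.97). PRC1, which bundles the central spindle, stood at 11.82 and 12.37 (0.55), and ECT2, which activates RhoA at the cleavage site, at 12.40 and 12.64 (0.24). MKI67 and ANLN thus lay 2.03-fold and 1.96-fold higher, and TOP2A and ECT2 1.35-fold and 1.18-fold.

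The genes of the metaphase-to-anaphase switch were higher in all 4 members, with a median of 0.42, above the CCAN but below the other groups. ESPL1 (separase), the protease that cuts cohesin, stood at 10.62 and 11.35 (0.74). PTTG1 (securin), its inhibitor, stood at 9.09 and 9.59 (0.50). UBE2C, a ubiquitin-conjugating enzyme of the APC/C, stood at 8.81 and 9.15 (0.34). CDC20, the APC/C activator that the checkpoint restrains, stood at 11.81 and 11.93 (0.12). CDC20 was thus close to equal on the arrays, while BUB1B, which restrains it, was 1.96-fold higher.

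**Figure D4:**
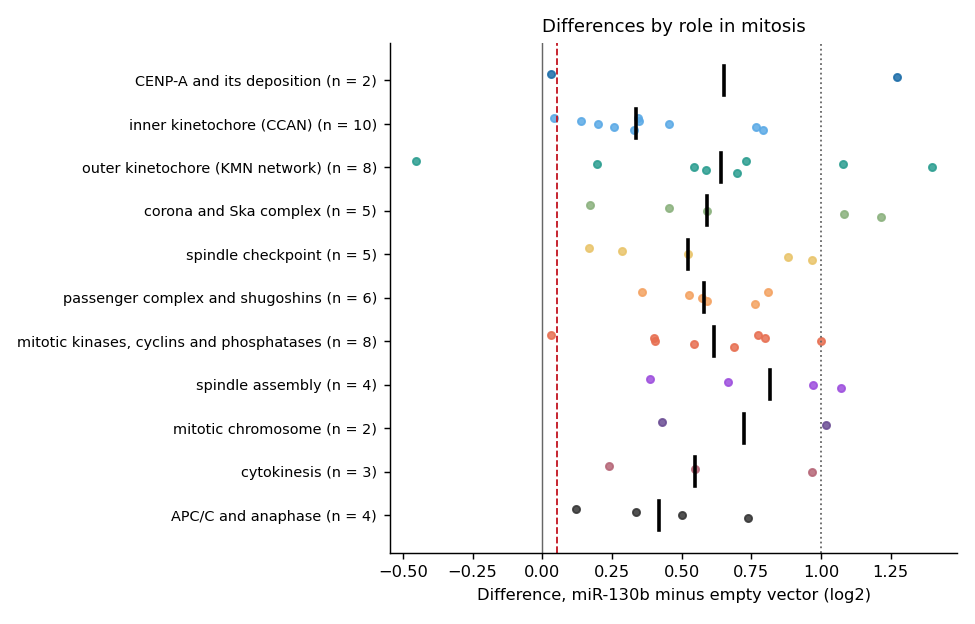
Differences (x axis, miR-130b minus empty vector, log2) of the measured mitotic genes in 11 role groups; each point is a gene, black bars are group medians, the dashed red line is the median of all named genes (0.053) and the dotted line 2-fold. Medians run from 0.34 in the CCAN to 0.82 in spindle assembly, and the groups overlap.

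Other genes of the same machinery were set beside the members. They were listed from general knowledge, but with earlier results of these data known, so they are not an independent comparison. Among all named genes, 58.6% were higher with miR-130b, 3.65% at least 1.5-fold and 1.06% at least 2-fold. The counts of this list and of those below are to be read beside these shares. Of 21 further centromere and kinetochore genes measured, 19 were higher and 2 lower, but the median was 0.13 and none was at least 1.5-fold higher. MIS18A, a partner of OIP5, had the highest difference (9.68 and 10.14, 0.46), followed by SPDL1, which brings dynein to kinetochores (10.71 and 11.13, 0.42). NDEL1, a dynein regulator, was the lowest (11.32 and 10.79, -0.53), and BOD1 followed at 11.28 and 11.11 (-0.17).

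The APC/C itself did not share the higher values. Of 17 subunits and regulators, 10 were higher (58.8%, against 58.6% of all named genes) and 7 lower. Their median was 0.030, close to that of all named genes. FBXO5 (EMI1), an inhibitor of the complex made at G1/S, was the highest at 10.07 and 10.60 (0.53), then ANAPC7 at 11.77 and 12.01 (0.25). ANAPC10 stood at 7.62 and 7.15 (-0.46, below the filter) and ANAPC16 at 9.22 and 8.88 (-0.34). The median of the list turned to -0.023 when differences were centred on that of all named genes.

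Cohesin and condensin genes were higher in 17 of 20, with a median of 0.37. NCAPG, a condensin subunit, stood at 10.16 and 11.16 (1.005), and ESCO2, the acetyltransferase that sets cohesion in S phase, at 10.48 and 11.40 (0.92). Its relative ESCO1 stood at 8.49 and 7.99 (-0.49, below the filter) and STAG1, a cohesin subunit, at 10.27 and 10.22 (-0.05). Of 17 further regulators of mitotic entry and exit, 14 were higher with a median of 0.34; GTSE1 stood at 9.53 and 10.51 (0.97) and CDC25A at 9.06 and 9.97 (0.91). The phosphatase CDC14B stood at 10.11 and 9.93 and the AURKA cofactor BORA at 9.33 and 9.14, both at -0.19.

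Regulators that control G2/M transcription were mixed, with 11 of 16 higher (68.8%, against 58.6% of all named genes), 5 lower and a median of 0.24. FOXM1, an activator of G2/M genes, stood at 10.93 and 11.71 (0.78) and MYBL2 (B-MYB), another activator, at 10.40 and 11.18 (0.77). LIN37, a subunit of the DREAM repressor, stood at 10.92 and 10.42 (-0.50) and E2F5, which can join that complex, at 10.98 and 10.52 (-0.46). Other genes of that complex were higher, among them RBL1 (p107) at 10.29 and 10.86 (0.56) and TFDP1 at 11.94 and 12.42 (0.48), both named after their values were seen, so the complex had no common direction.

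All 12 mitotic kinesins were higher, with a median of 0.80, above that of the members. KIF20B stood at 9.03 and 10.08 (1.05) and KIF18A, which damps chromosome movement, at 10.41 and 11.44 (1.03). The lowest were KIF2C, a microtubule depolymerase, at 10.32 and 10.54 (0.22) and KIF22 at 10.57 and 11.09 (0.52). Genes of DNA replication were higher in 32 of 33, of which 4 at least 2-fold, with a median of 0.66. ORC1 stood at 9.65 and 10.94 and MCM10 at 10.66 and 11.95, both at 1.29, while RFC4 stood at 12.20 and 12.38 (0.18) and CDC6 at 12.22 and 11.89 (-0.33). Kinesins and S-phase genes thus differed between the arrays by at least as much as the members at the median, and the difference between these lists was not tested.

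**Figure D5:**
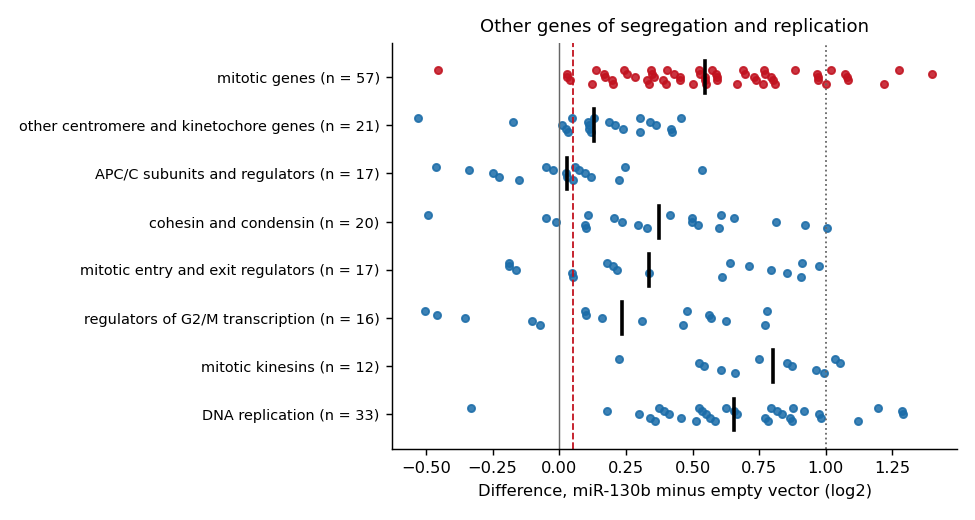
Differences (x axis, miR-130b minus empty vector, log2) of the 57 measured mitotic genes (red) and of 7 lists of related genes (blue); each point is a gene, black bars are medians, the dashed red line is the median of all named genes (0.053) and the dotted line 2-fold. Mitotic kinesins (0.80) and DNA replication genes (0.66) have medians above that of the mitotic genes (0.55), and APC/C subunits (0.030) lie near all named genes.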

How the data were processed

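Biotin-labelled cDNA of Ago2-precipitated RNA was hybridised to 1 array per group, per the labels. The authors' deposited values are log2 expression per probe set (33297 on each array); the scale was read from their range, 1.95 to 14.2, and which software, background correction and normalization made them is not given in the sources used here. Probe sets were named through the supplied platform annotation: 19460 had 1 symbol, updated through Entrez identifiers for 19429, while 1754 with several symbols and 12083 unnamed ones were left out. Probe sets of a gene were averaged. Differences are miR-130b minus empty vector, counted at 2-fold and 1.5-fold. Precision is limited by the number of arrays. The members and lists were chosen with earlier results of these data known. All members were accounted for, with full values for those at least 2-fold apart, the 2 highest and 2 lowest of each role group and any lower member; of the other pathway lists the 2 highest and 2 lowest were named. NSL1, RBL1, TFDP1, CDH1, CD68 and the promoter examples were picked after their values were seen. Promoters came from RefSeq (GRCh38.p14). Values were handled in Python 3.11.15 with pandas 2.3.3 and, for quantile normalization and cyclic loess, limma 3.58.1, and the steps were tested on simulated data.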

Additional observations from a re-analysis of the deposited data

How the results depend on the processing

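The median difference of the members lay between 0.49 and 0.57 under the 7 alternatives (filters at the median and the 75th percentile of level, median centring, quantile normalization, cyclic loess, the brightest probe set, and subtraction of the olfactory receptor signal). With the filter at the 75th percentile, 28 members were left and 28 were higher, 5 of them at least 2-fold; the fewer genes left set these counts. There the median of the CENP-A group was 1.27 and that of the corona and Ska group 1.08, each from the 1 gene left, and that of the kinases 0.40 from 5 genes. At a threshold of 1.5-fold, 26 members counted as higher. Median centring took CDK1 and MKI67 under 2-fold, which left 6 members, and put CDC25B, OIP5 and CENPH below 0 beside MIS12; cyclic loess put CENPH below 0. Median centring also turned the median of the APC/C list to -0.023. With a window of 150 bases before to 50 after the start, 67.3% of members held a CHR-type motif and 73.5% a CCAAT box. Both were held by 49.0%, and TTCCCGC by 12.2%. Counted per promoter, an alternative added after the data were seen, these shares were 62.5%, 73.4%, 46.9% and 15.6%. All lay within the 95% exact binomial intervals of the main shares. That is no test, since the members were chosen by name and both counts reuse the same promoters. With 1 array per group, no replicate could be left out.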
